A study of Saccharomyces cerevisiae with 18 samples.

Results

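The 10 genes described here, which yeast keeps low while glucose is plentiful, were followed across 3 strains and 3 ethanol levels. They are the regulator genes CAT8 and ADR1, the gluconeogenic genes FBP1, PCK1 and MDH2, the glyoxylate cycle genes ICL1 and MLS1, the invertase gene SUC2, and the lactate genes JEN1 and CYB2. The members were taken by gene name: each has 1 probe set (a group of short DNA probes for 1 transcript) in the array's annotation, and all 10 were found among the 5449 genes with a probe set. RNA was measured on 18 Affymetrix arrays of total RNA from Saccharomyces cerevisiae, described in the labels as ethanol tolerant, with 2 arrays in each of 9 groups. The groups are the diploid at 0%, 3% and 7% ethanol by volume, the haploid labelled Mat a at 0%, 3% and 7%, and the haploid labelled Mat alpha at 0%, 3% and 7%. All cultures grew in fermentors in rich medium with glucose and were sampled in mid-exponential growth. The labels do not say whether the 2 samples of a group came from separate cultures, so p-values measure only the spread between these samples, which may be technical.

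In yeast, glucose holds down the enzymes needed to live on ethanol, acetate, glycerol or lactate. When glucose runs out, the protein kinase Snf1 relieves the repressor Mig1, and the activators Cat8 and Adr1 switch on the glyoxylate cycle, gluconeogenesis and ethanol oxidation. Ethanol is thus a carbon source for these pathways, but in the presence of glucose they normally stay repressed.

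Values are the deposited signals after each array was scaled to the same trimmed mean, in array units. Changes are differences of log2(signal + 16) ± SE from limma, which understate the ratio for dim genes, and a gene is said to have risen, fallen or differed when its adjusted p was under 0.05 over the 5363 genes tested. All 10 genes were among those tested. Signals of different genes depend on their probes and are not compared with each other. The background limit of an array, set from probe sets of another yeast, was 4.63 to 7.6, and 8 of the genes were above it on all 18 arrays, FBP1 on 17 and CAT8 on 16. SUC2, at 784.5 or more on every array, was far above the limit although glucose was present. Over all genes, the SD of an array within its group was 0.116 to 0.158 (log2). The 3' over 5' signal of ACT1, a sign of RNA quality, was 1.09 to 1.3. One strain went against its label: the 5 alpha-specific genes had mean signals of 7.69 to 95 in the diploid, 581 to 4670 in the haploid labelled a and 606 to 4390 in the haploid labelled alpha. The 7 a-specific genes had mean signals of 4.49 to 27.5 in the diploid, 7.33 to 30.8 in the haploid labelled a and 5.21 to 25.4 in the haploid labelled alpha. Its name below, the haploid labelled a, is therefore only that of the label, and results that rest on it are given by strain.

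The 10 genes did not all move the same way with ethanol. At 7% against 0%, in the mean of the 3 strains, ADR1, PCK1, ICL1 and CYB2 rose, MLS1, SUC2 and MDH2 fell, and FBP1, JEN1 and CAT8 were not called. Among all genes tested 48.3% rose and 22.3% fell in this contrast. The median change of the 10 was 0.08, beside 0.13 for all genes tested. This split depends on the scaling: with quantile normalization or median centring, where the median of all genes was 0.00 or -0.07, ADR1 alone rose and 4 genes fell (MLS1, SUC2, MDH2 and CAT8). All genes then split into 1876 that rose and 1840 that fell, or 1623 and 2207, where the trimmed-mean scaling gave 2592 and 1196. Under both settings PCK1 (0.08 and 0.15), ICL1 (0.01 and 0.13) and CYB2 (-0.04 and 0.03) were not called. ADR1, MLS1, SUC2 and MDH2 kept their calls under all 27 alternatives, which are 9 other settings and 18 fits with 1 array left out. At 3% against 0% CYB2 rose and SUC2, MDH2, MLS1 and CAT8 fell, 1 and 4 genes where 32% of all genes rose and 17.3% fell. The median was then -0.11 beside 0.06. The 7% and 3% comparisons share the 0% arrays. Between 3% and 7%, 6 rose and 2 fell, beside 38% and 18.3% of all genes. With quantile normalization 2 rose and 2 fell between these levels, with median centring 1 and 2, and without scaling 2 and 2. Over all genes the trimmed-mean scaling gave 2038 rises and 982 falls here. All genes split into 1517 and 1467 with quantile normalization, 1205 and 1804 with median centring, and 1154 and 1152 without scaling. With the haploid labelled a left out of the means, an alternative chosen after seeing the data, 2 of the 10 rose and 3 fell at 7% against 0%. They were ADR1 and PCK1 up, and MLS1, MDH2 and SUC2 down. In that setting ICL1 changed by 0.08 (adjusted p = 0.546) and CYB2 by 0.15 (adjusted p = 0.163). The share of all genes called was not counted for this mean. In the diploid alone 36.5% of all genes rose and 20% fell, and in the haploid labelled alpha 26.9% and 19.9%.

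**Figure D1:**
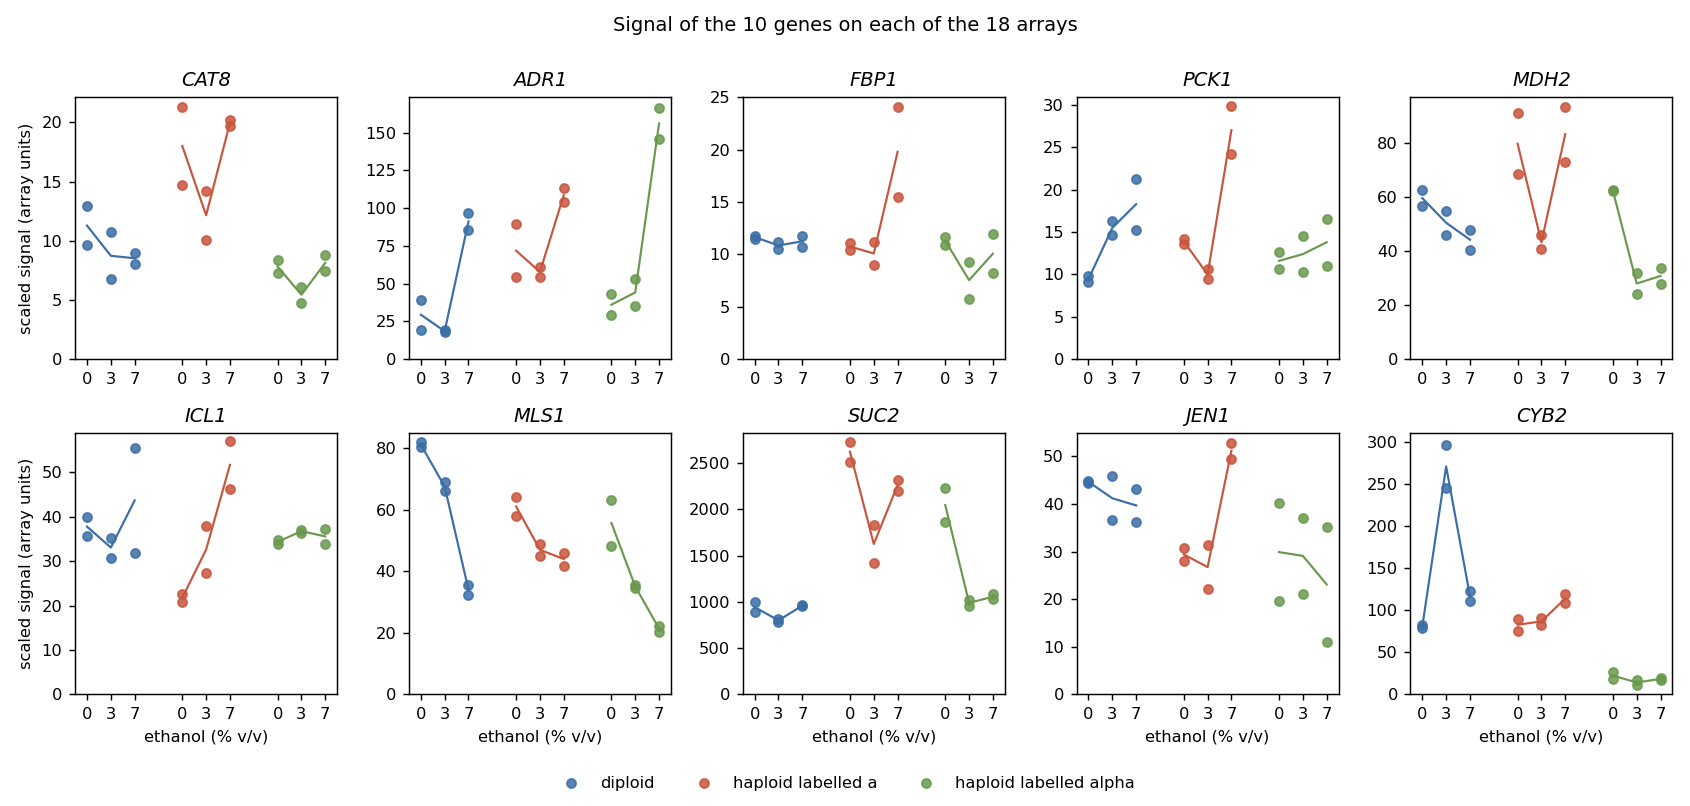
Scaled signal (vertical axis, array units, each panel with its own scale from 0) of each gene on each array (points), by ethanol level in percent by volume, with lines through the group means (n = 2 arrays each). By group mean, ADR1 is highest and MLS1 lowest at 7% in every strain, and CYB2 is highest in the diploid at 3%.

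ADR1 rose at 7% ethanol, while CAT8 was dim and differed between the haploids. ADR1 (YDR216W) encodes a zinc finger activator of genes for ethanol and fatty acid use. In the diploid its signal was 39.2 and 19.5 at 0%, 17.8 and 19.1 at 3%, and 85.7 and 96.6 at 7% ethanol. Its signals in the haploid labelled a were 89.4 and 54.1, then 61.1 and 54.3, then 104 and 113 at the same levels. The haploid labelled alpha gave 42.9 and 29.1, then 53.2 and 35, then 166 and 146. Both 7% arrays of each strain lay above all 0% and 3% arrays of that strain.

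ADR1 rose at 7% against 0% in 3 of 3 strains. The change was 1.27 ± 0.199 in the diploid (2.42-fold, adjusted p = 1.61e-05), 0.54 ± 0.199 in the haploid labelled a (1.45-fold, adjusted p = 0.0243) and 1.74 ± 0.199 in the haploid labelled alpha (3.33-fold, adjusted p = 4.18e-07). The rise was smaller in the haploid labelled a than in the haploid labelled alpha, by -1.20 ± 0.282 (adjusted p = 0.00283). The call in the haploid labelled a was lost without its second 0% array (0.24), its first (0.59) or second (0.48) 7% array, with quantile normalization (0.01) and with median centring (0.20). At 3% against 0% the mean change was -0.13 ± 0.115 (adjusted p = 0.375). Ranked by mean, the 3 groups at 7% came first, and neither the haploid labelled alpha nor the haploid labelled a overlapped the next group in the order.

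CAT8 (YMR280C), the zinc cluster activator that binds the promoters of FBP1, PCK1, ICL1, MLS1 and JEN1, lay close to the background limit. Its signals ran from 6.75 to 12.9 in the diploid, from 10.1 to 21.3 in the haploid labelled a and from 4.77 to 8.78 in the haploid labelled alpha. At 7% against 0% it changed by -0.02 ± 0.076 in the mean of the strains (adjusted p = 0.862). At 3% against 0% it fell by 0.19 on the log2 scale (adjusted p = 0.0456), a call that 16 of 27 alternatives ended. CAT8 was 0.49 ± 0.076 higher in the haploid labelled a than in the haploid labelled alpha over the 3 levels (adjusted p = 1.37e-05), and higher at each level.

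FBP1 and PCK1, which encode the committed enzymes of gluconeogenesis, read no higher than 24.1 and 29.9 on any array. FBP1 (YLR377C), fructose-1,6-bisphosphatase, had signals of 10.5 to 11.8 on the 6 arrays of the diploid. The haploid labelled a gave 11.1 and 10.4 at 0%, 8.97 and 11.2 at 3%, and 15.5 and 24.1 at 7%. FBP1 ran from 5.78 to 11.9 in the haploid labelled alpha, so the 2 arrays of the haploid labelled a at 7% were the highest of the 18. FBP1 rose in that strain by 0.41 ± 0.133 at 7% against 0% (adjusted p = 0.0113), a call lost without its second 7% array (0.23) or second 0% array (0.39) and with median centring (0.07), and gone with quantile normalization (-0.02). In the diploid the change was -0.02 ± 0.133 and in the haploid labelled alpha -0.07 ± 0.133 (adjusted p = 0.905 and 0.701).

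PCK1 (YKR097W), phosphoenolpyruvate carboxykinase, read 9.08 and 9.8 at 0%, 16.3 and 14.7 at 3%, and 21.3 and 15.3 at 7% in the diploid. PCK1 in the haploid labelled a read 13.6 and 14.2, then 10.6 and 9.4, then 24.2 and 29.9. Its 6 arrays of the haploid labelled alpha ran from 10.3 to 16.6 and the levels overlapped. PCK1 rose at 7% against 0% by 0.43 ± 0.133 in the diploid (1.34-fold, adjusted p = 0.01) and by 0.52 ± 0.133 in the haploid labelled a (1.44-fold, adjusted p = 0.00205). The change in the haploid labelled alpha was 0.11 ± 0.133 (adjusted p = 0.548). The difference between the changes of the 2 haploids, 0.42 ± 0.189, was not called (adjusted p = 0.0876). The diploid's call was lost without its first 7% array (0.30) or first 0% array (0.41), and both calls were lost with quantile normalization (0.17 and 0.05) and median centring (0.23 and 0.18), as was the diploid's without scaling (0.35).

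MDH2 (YOL126C) encodes the cytosolic malate dehydrogenase, which turns malate from the glyoxylate cycle into the oxaloacetate that Pck1 uses. It read 56.5 and 62.4 at 0%, 54.7 and 46 at 3%, and 40.4 and 47.8 at 7% in the diploid. The haploid labelled a gave 68.2 and 90.9, then 40.5 and 45.8, then 93.3 and 72.9, so that only 3% stood low. MDH2 in the haploid labelled alpha read 62.4 and 62, then 31.7 and 24.1, then 27.6 and 33.8, so that 3% and 7% stood low together.

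MDH2 fell at 3% against 0% by 0.68 in the haploid labelled a (adjusted p = 0.000779) and by 0.84 in the haploid labelled alpha (adjusted p = 0.000194) on the log2 scale. In the diploid the change was -0.19 ± 0.143 (adjusted p = 0.39). The difference between the diploid and the haploids in this change was 0.57 ± 0.175 (adjusted p = 0.0445), a call that 15 of 27 alternatives ended. From 3% to 7% MDH2 rose by 0.74 ± 0.143 in the haploid labelled a (adjusted p = 0.000397), against a change of 0.09 ± 0.143 in the haploid labelled alpha. It was still 1.68-fold lower at 7% than at 0% in the haploid labelled alpha (-0.75 ± 0.143, adjusted p = 0.000215) and changed by 0.05 ± 0.143 in the haploid labelled a. These 2 changes differed by 0.80 ± 0.202 (adjusted p = 0.00471). With quantile normalization the change in the haploid labelled a was a fall (-0.46, adjusted p = 0.0123), and the difference between the haploids was not called (0.34).

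Of the 2 enzymes particular to the glyoxylate cycle, one rose in the haploid labelled a and the other fell in all 3 strains at 7%. ICL1 (YER065C), isocitrate lyase, which splits isocitrate into succinate and glyoxylate, read 39.9 and 35.6 at 0%, 30.8 and 35.3 at 3%, and 55.5 and 31.8 at 7% in the diploid, where the 2 arrays at 7% were further apart than any other pair. ICL1 in the haploid labelled a read 22.6 and 20.9, then 37.8 and 27.4, then 46.2 and 57.1, and 7% lay above 0% and 3%. Its 6 arrays of the haploid labelled alpha ran only from 33.8 to 37.3. ICL1 rose at 7% against 0% in the haploid labelled a by 0.84 ± 0.155 (1.78-fold, adjusted p = 0.000103). The change was 0.12 ± 0.155 in the diploid (adjusted p = 0.527) and 0.04 ± 0.155 in the haploid labelled alpha (adjusted p = 0.873). The changes of the 2 haploids differed by 0.80 ± 0.22 (adjusted p = 0.00814), and by 0.30 with quantile normalization and 0.52 with median centring, neither of which was called. With quantile normalization the rise itself was 0.26 and not called.

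MLS1 (YNL117W), malate synthase, which joins glyoxylate to acetyl-CoA, fell at 3% against 0% (-0.33 ± 0.068, adjusted p = 0.000541) and again at 7% against 3% (-0.42 ± 0.068, adjusted p = 2.68e-05) in the mean of the strains. In the diploid it read 82 and 80.3 at 0%, 66.1 and 69 at 3%, and 35.7 and 32.4 at 7%. The haploid labelled a gave 57.9 and 64.2, then 48.9 and 45.1, then 46.1 and 41.9. MLS1 in the haploid labelled alpha read 48.1 and 63.3, then 35.7 and 34.5, then 22.4 and 20.4. The 0% arrays lay above the 3% arrays in each strain, and the 3% and 7% arrays overlapped only in the haploid labelled a.

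At 7% against 0% MLS1 fell in 3 of 3 strains: -0.96 ± 0.118 in the diploid (1.94-fold lower, adjusted p = 8.12e-07), -0.36 ± 0.118 in the haploid labelled a (1.28-fold lower, adjusted p = 0.012) and -0.93 ± 0.118 in the haploid labelled alpha (1.91-fold lower, adjusted p = 1.71e-06). The fall was smaller in the haploid labelled a than in the haploid labelled alpha by 0.57 ± 0.167 (adjusted p = 0.012), a call lost without the second 0% array of the haploid labelled alpha (0.42) and with quantile normalization (0.02), median centring (0.30) or no scaling (0.60). The fall in the haploid labelled a was not called without its second 0% array (-0.30) or second 7% array (-0.31). In the mean of the strains the fall held under all 27 alternatives, between -1.06 and -0.42. MLS1 was also 0.34 ± 0.059 higher in the diploid than in the mean of the haploids over the 3 levels (adjusted p = 0.00011). By level the difference was 0.39 at 0%, 0.56 at 3% and 0.08 at 7% (adjusted p = 0.011, 0.000253 and 0.617). At 7% both diploid arrays lay below both arrays of the haploid labelled a.

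**Figure D2:**
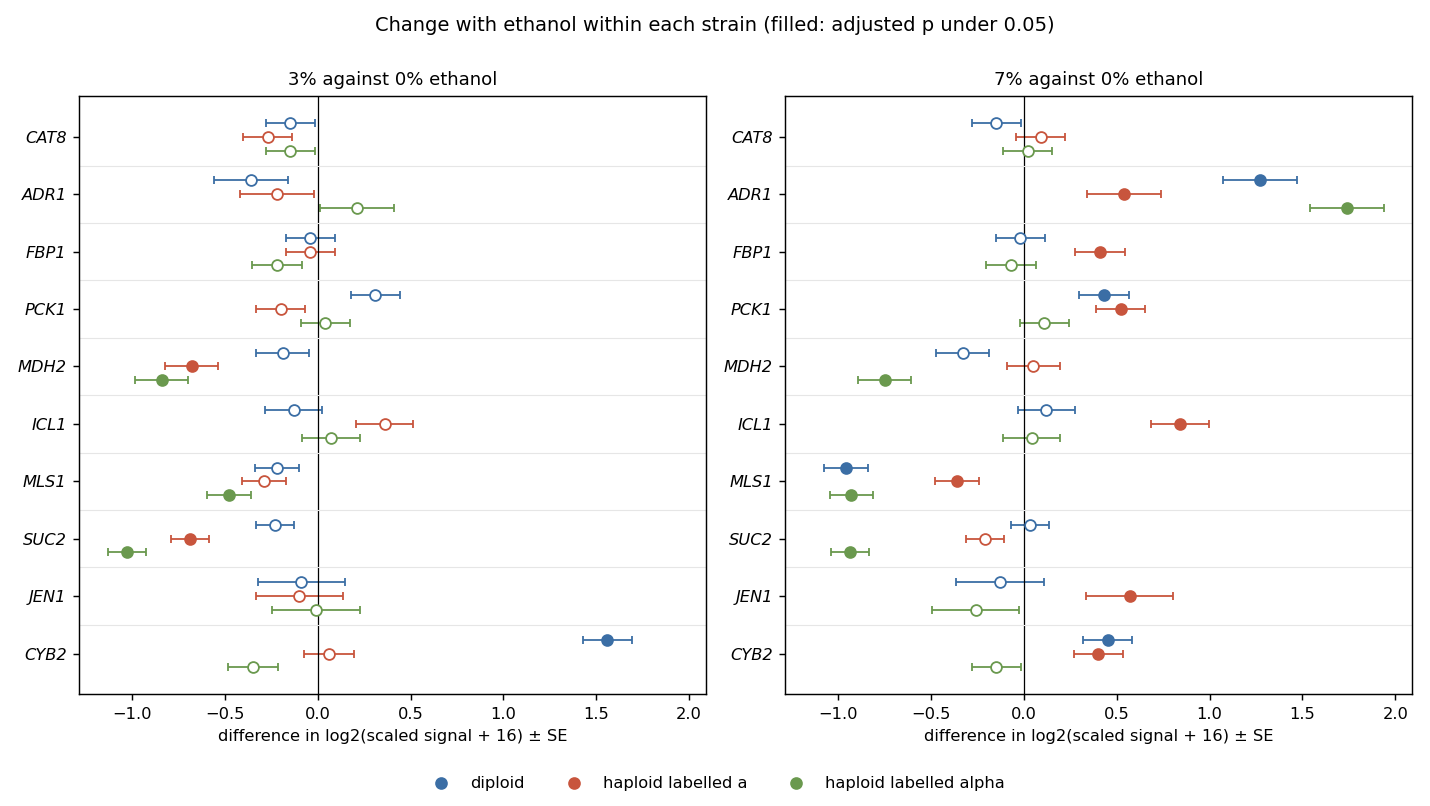
Change of each gene within each strain at 3% against 0% (left) and 7% against 0% ethanol (right), as the difference in log2(scaled signal + 16) with its SE (bars), filled where the adjusted p was under 0.05. At 7% ADR1 rose and MLS1 fell in all 3 strains, while ICL1, FBP1 and JEN1 were called in the haploid labelled a alone, with a test of the difference between the haploids called for ICL1 and not for FBP1 or JEN1.

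SUC2 (YIL162W), which encodes the invertase that splits sucrose and is a classic target of Mig1, stood apart by strain at every level. In the diploid it read 999 and 886 at 0%, 816 and 784.5 at 3%, and 950.4 and 967 at 7%. SUC2 in the haploid labelled a read 2729.6 and 2505 at 0%, 1422 and 1827 at 3%, and 2325 and 2202 at 7%. The haploid labelled alpha gave 1861 and 2233 at 0%, 959 and 1018 at 3%, and 1081 and 1026 at 7%. All 4 haploid arrays at 0% lay above all 6 diploid arrays.

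SUC2 fell at 3% against 0% by 0.69 in the haploid labelled a (1.62-fold lower, adjusted p = 2.84e-05) and by 1.03 in the haploid labelled alpha (2.05-fold lower, adjusted p = 2.39e-07) on the log2 scale. In the diploid the change was -0.23 ± 0.102 (adjusted p = 0.119), and it differed from that of the haploids by 0.63 ± 0.125 (adjusted p = 0.00225). SUC2 was 1.92-fold lower at 7% against 0% in the haploid labelled alpha (-0.94 ± 0.102, adjusted p = 1.76e-07), but changed by -0.21 ± 0.102 in the haploid labelled a (adjusted p = 0.0818) and 0.03 ± 0.102 in the diploid (adjusted p = 0.839). The changes of the 2 haploids differed by 0.74 ± 0.144 (adjusted p = 0.000714), a call that held under all 27 alternatives. SUC2 was lower in the diploid than in the mean of the haploids at every level, by 1.28 on the log2 scale at 0% (2.43-fold, adjusted p = 7.31e-10) and 1.6-fold at 7% (adjusted p = 1e-05). At 7% the haploids themselves lay apart, with the diploid arrays at 950.4 and 967 close to those of the haploid labelled alpha at 1081 and 1026, so the difference there comes mostly from the haploid labelled a. Ranked by group mean, 5 of the 8 neighbouring pairs of groups did not overlap. The other members had 1 to 4 such pairs, and the share over all genes was not counted.

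The lactate genes differed by strain. JEN1 (YKL217W), the lactate and pyruvate permease, varied more between arrays of a group than the other members, with a residual SD of 0.312 on the log2 scale. Its 6 arrays of the diploid ran from 36.3 to 45.8. JEN1 in the haploid labelled a read 28.1 and 30.7 at 0%, 22.2 and 31.3 at 3%, and 52.9 and 49.5 at 7%. The haploid labelled alpha gave 40.2 and 19.6, then 21.1 and 37.1, then 35.2 and 11, and its levels overlapped. JEN1 rose at 7% against 0% in the haploid labelled a by 0.57 ± 0.235 (adjusted p = 0.0416). Leaving out any of the 4 arrays in that comparison ended the call (0.52 to 0.61), and the difference from the change in the haploid labelled alpha, 0.83 ± 0.332, was not called (adjusted p = 0.0546).

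CYB2 (YML054C), the L-lactate dehydrogenase of the mitochondrial intermembrane space that passes electrons to cytochrome c, spanned the widest range among the 10, 3.25 on the log2 scale between group means. In the diploid it read 79 and 82.9 at 0%, 297 and 245 at 3%, and 123 and 111 at 7%. CYB2 in the haploid labelled a read 75.7 and 90.1, then 90.9 and 82.9, then 119 and 109. Its signals in the haploid labelled alpha were 18.7 and 26.3, then 11.5 and 16.9, then 19.5 and 17.6. All arrays of the haploid labelled alpha lay below all others, and the diploid at 3% lay above all others.

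In the diploid CYB2 rose by 1.56 ± 0.133 at 3% against 0% (2.95-fold, adjusted p = 6.34e-08) and fell by 1.10 on the log2 scale from 3% to 7% (2.15-fold lower, adjusted p = 8.63e-07). The change at 3% differed from that of the haploids by 1.70 ± 0.163 (adjusted p = 1.12e-06) and held under all 27 alternatives. The change at 3% was 0.06 ± 0.133 in the haploid labelled a (adjusted p = 0.744) and -0.35 ± 0.133 in the haploid labelled alpha (adjusted p = 0.0602). CYB2 also rose at 7% against 0%, by 0.45 ± 0.133 in the diploid (adjusted p = 0.00633) and by 0.40 ± 0.133 in the haploid labelled a (adjusted p = 0.0133). The first call was lost without the first 7% array (0.39) and the second without the first 0% (0.29) or first 7% array (0.35), and both with quantile normalization (0.19 and -0.09), median centring (0.26 and 0.06) or no scaling (0.30 and 0.37). CYB2 was 1.68 ± 0.077 higher in the haploid labelled a than in the haploid labelled alpha over the 3 levels (3.21-fold, adjusted p = 1.62e-13). It was 1.34 ± 0.066 higher in the diploid than in the mean of the haploids (adjusted p = 1.3e-12). At 0% the diploid and the haploid labelled a overlapped, with means of 81 and 82.9, so the difference of 0.66 ± 0.115 at that level (adjusted p = 0.000357) comes against a mean that the haploid labelled alpha, at 22.5, lowers.

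**Figure D3:**
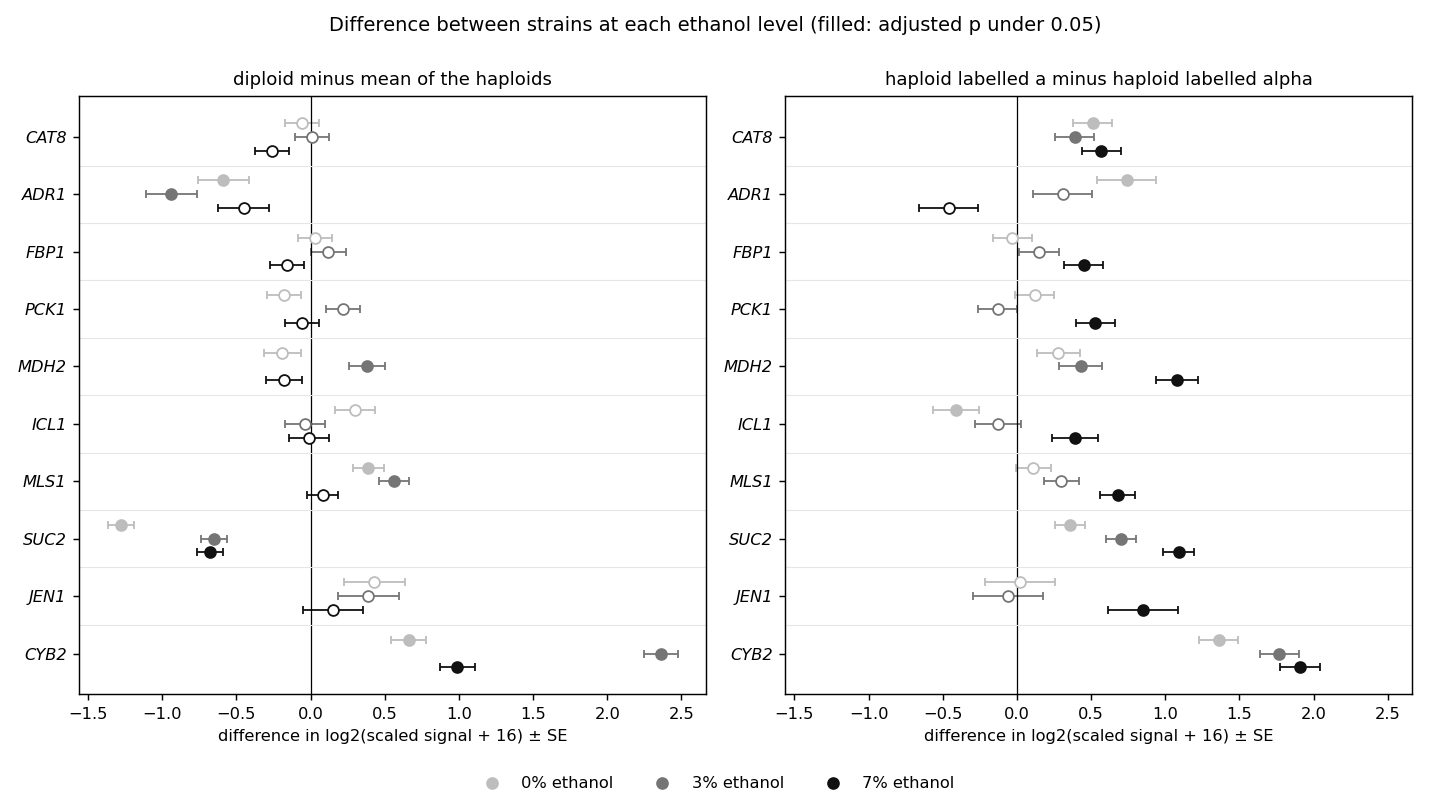
Difference between strains for each gene at 0%, 3% and 7% ethanol, as the difference in log2(scaled signal + 16) with its SE (bars), filled where the adjusted p was under 0.05: the diploid minus the mean of the haploids (left) and the haploid labelled a minus the haploid labelled alpha (right). CYB2 stands farthest to the right in both panels, at 2.36 in the diploid at 3%, and SUC2 lies below 0 in the diploid and above 0 in the haploid labelled a at each level.

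Between strains, CYB2, MLS1 and JEN1 were higher and SUC2 and ADR1 lower in the diploid than in the mean of the haploids over the 3 levels, while 15.8% of all genes were higher and 24.6% lower. The direction among all genes depends on the scaling: 846 were higher and 1317 lower here, but 1228 and 916 with quantile normalization and 1331 and 867 with median centring, where 4 and 3 of the 10 were higher and 2 lower. ADR1 was lower by 0.66 on the log2 scale (adjusted p = 2.34e-05). JEN1 was higher by 0.32 ± 0.117 (adjusted p = 0.0323), a call that 7 of 27 alternatives ended, each with 1 array left out. It was not called at 0%, 3% or 7% alone (adjusted p = 0.161, 0.154 and 0.63). At 7% both JEN1 arrays of the haploid labelled a, 52.9 and 49.5, lay above every diploid array. At 0% ethanol 2 of the 10 were higher and 2 lower (7.42% and 10.6% of all genes), at 3% 3 were higher and 2 lower (13.2% and 18.7%), and at 7% CYB2 was higher and SUC2 lower (8.6% and 13.6%). The CYB2 arrays of the diploid at 7%, 123 and 111, overlapped those of the haploid labelled a, 119 and 109. The CYB2 difference at 7% thus comes against a mean that the haploid labelled alpha, at 18.6, lowers.

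Between the haploids, 6 genes were higher and 0 lower in the one labelled a over the 3 levels: CYB2, SUC2, MDH2, CAT8, MLS1 and FBP1. Among all genes tested 27.8% were higher and 34.3% lower in that contrast. With quantile normalization or median centring 5 of the 10 were higher and 0 lower, and without scaling 9 and 0, where the split of all genes, 1492 higher and 1837 lower here, was 1873 and 763. That split was 1438 higher and 1846 lower with quantile normalization, and 1419 and 1917 with median centring. At 0% ethanol 4 were higher and 1, ICL1, was lower (adjusted p = 0.033), beside 15.8% higher and 34.7% lower among all genes. At 3% 4 were higher and 0 lower, beside 19.1% and 17.6%. At 7% 9 of the 10 were higher, beside 28.7% higher and 17.2% lower among all genes, and ADR1 was the exception at -0.46 ± 0.199 (adjusted p = 0.0644). The call of ICL1 at 7% (0.39 ± 0.155, adjusted p = 0.0481) was ended by 16 of 27 alternatives, that of ICL1 at 0% by 8 and that of FBP1 over the 3 levels (0.19 ± 0.077, adjusted p = 0.0364) by 10. The largest of these differences at 7% were CYB2 at 1.91 ± 0.133, SUC2 at 1.09 ± 0.102 and MDH2 at 1.08 ± 0.143.

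The rises in the haploid labelled a at 7% against 0% went with a shift of dim transcripts on its arrays. In that strain 6 of the 10 genes rose and 1 fell, beside 48.4% of all genes that rose and 15.1% that fell. Among the 1791 genes tested with a median signal under 100, which include 9 of the 10, 64.1% rose and 3.69% fell, and their median change was 0.48. In the same genes the median change was 0.24 in the diploid and 0.08 in the haploid labelled alpha. With quantile normalization, which makes the distributions of all arrays equal, 0 of the 10 rose in the haploid labelled a and 3 fell, where 1464 of all genes rose and 1447 fell. With median centring 1 rose and 2 fell, where 1328 of all genes rose and 1933 fell. The part of this shift in the rises of FBP1, PCK1, ICL1, JEN1, CYB2 and ADR1 in that strain was not tested beyond these settings. The diploid had 3 of the 10 rise and 1 fall in the same comparison (36.5% and 20% of all genes), and the haploid labelled alpha 1 rise and 3 falls (26.9% and 19.9%). With quantile normalization or median centring the diploid had 1 rise and 3 falls, where all genes had 1484 rises and 1521 falls, or 1306 and 1731. The haploid labelled alpha again had 1 and 3, where all genes had 1367 rises and 1256 falls, or 1190 and 1280.

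At 3% against 0%, 1 of the 10 rose and 0 fell in the diploid (12.4% and 7.96% of all genes), 0 rose and 2 fell in the haploid labelled a (31.5% and 12%), and 0 rose and 3 fell in the haploid labelled alpha (12.6% and 12.6%). From 3% to 7%, 2 rose and 2 fell in the diploid (27.3% and 16.4%), 8 rose and 0 fell in the haploid labelled a (27.9% and 10%), and 1 rose and 1 fell in the haploid labelled alpha (16.6% and 10.1%). Among the 1791 dim genes 36.4% rose and 1.68% fell in the haploid labelled a from 3% to 7%. Of 27 alternatives, 7 ended the call of CAT8 there, 6 that of JEN1, and 4 each those of FBP1 and ICL1. PCK1, MDH2, SUC2 and ADR1 kept that call under all 27. The 2 haploids differed in the change at 7% against 0% for 6 genes, 5 with the larger value in the one labelled a and 1 with the smaller (30.5% and 7.4% of all genes). With quantile normalization 1 of the 10 was larger and 1 smaller, where all genes split into 547 larger and 554 smaller, and with median centring 2 and 1, where all genes split into 615 and 1125. The trimmed-mean scaling gave 1637 and 397, so the one-sided split of all genes was not kept under these settings. The same difference at 3% against 0% was called for 0 of the 10 by limma at adjusted p (15.3% and 3.6% of all genes). ADR1 at -0.43, CYB2 at 0.41 and SUC2 at 0.34 were among those not called (adjusted p = 0.306, 0.135 and 0.104). The diploid differed from the haploids in the change at 7% for SUC2 alone among the 10, with a larger value (4.77% of all genes larger, 4.44% smaller), and in the change at 3% for 3 genes, all larger (4.01% and 4.96%). The SUC2 change at 7% was 0.03 in the diploid, -0.21 in the haploid labelled a and -0.94 in the haploid labelled alpha. Its difference at 7% thus comes mostly from the haploid labelled alpha.

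The genes around the 10 were divided too at 7% against 0% in the mean of the strains, where 48.3% of all genes rose and 22.3% fell. Of 18 genes of gluconeogenesis and of acetate and acetyl transport, 8 rose and 5 fell. The smallest adjusted p-values belonged to a fall of PYC2, a pyruvate carboxylase, by 1.56 on the log2 scale (2.95-fold lower), and rises of the acetylcarnitine carrier CRC1 (1.30 ± 0.073) and the carnitine acetyltransferase CAT2 (0.92 ± 0.065), with its relative YAT1 at -0.75 ± 0.082. The adjusted p-values of these 4 ran from 9.14e-17 for PYC2 to 7.06e-08 for YAT1. The other malate dehydrogenases fell a little, MDH1 of mitochondria by 0.22 and MDH3 of peroxisomes by 0.33 on the log2 scale. The remaining fall in the list was ATO3, of a family of ammonium and acetate transporters, by 0.35 on the log2 scale (adjusted p = 1.69e-05). DAL7, the malate synthase of allantoin breakdown, named after its values were seen, rose by 0.42 ± 0.072 while MLS1 fell, but was not called with quantile normalization (0.10). With quantile normalization 4 genes of this list rose and 8 fell, and with median centring 4 and 9.

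Of 9 genes of lactate use, cytochrome c and the mitochondrial pyruvate carrier, 3 rose and 5 fell at 7%. DLD3, a cytosolic dehydrogenase of D-lactate and 2-hydroxyglutarate, rose 2-fold (adjusted p = 4.81e-13) and the pyruvate carrier subunit MPC3 by 0.81 ± 0.07 (adjusted p = 1.85e-09). CYC7, the minor isoform of cytochrome c, changed by -0.59 ± 0.059 and DLD2 by -0.56 ± 0.063. Between the haploids, 6 of the 9 were higher in the haploid labelled a and 1 lower over the 3 levels, beside 27.8% and 34.3% of all genes. CYC1, the main isoform of the protein that takes electrons from Cyb2, was singled out after its values were seen: it was 1.87 ± 0.084 higher in the haploid labelled a (adjusted p = 1.38e-13), and CYC7 was 2.32 ± 0.059 higher. DLD3 was the lower one, at -1.21 ± 0.052.

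Of 13 genes known as targets of Adr1, 8 rose at 7% and 1 fell, and the median was 0.27 beside 0.13 for all genes. Among the 1791 genes tested with a median signal under 100 it was 0.26, and 59% rose and 10.9% fell. POX1, the acyl-CoA oxidase of peroxisomes, rose by 0.91 ± 0.077 (adjusted p = 1.32e-09), ADH2, the alcohol dehydrogenase that oxidises ethanol, by 0.54 ± 0.077 (adjusted p = 2.51e-06), ETR1 by 0.55 ± 0.088 and the mitochondrial aldehyde dehydrogenase ALD4 by 0.29 ± 0.039. FOX2 of fatty acid oxidation was the exception at -0.43 ± 0.093. With quantile normalization 4 of the 13 rose and 3 fell, with a median of -0.03 beside 0.00 for all genes. With median centring 3 rose and 3 fell, with a median of 0.07 beside -0.07, and ALD4 was not called (0.09). Set against the haploid labelled alpha, all 13 were higher in the haploid labelled a over the 3 levels, where 27.8% of all genes were. With quantile normalization or median centring 12 of 13 were, with POX1 not called. At 0% 6 were higher and 1 lower (15.8% and 34.7% of all genes). At 3% they were 6 and 0 (19.1% and 17.6%), and at 7% 12 and 0 (28.7% and 17.2%). ADR1 itself differed by 0.74 ± 0.199 at 0% (adjusted p = 0.00438), 0.31 ± 0.199 at 3% (adjusted p = 0.239) and -0.46 ± 0.199 at 7% (adjusted p = 0.0644). Its difference over the 3 levels, 0.20 ± 0.115 (adjusted p = 0.149), averages these opposite signs.

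Of 25 regulators of repression and derepression, 14 rose and 3 fell at 7%, against 8 and 7 with quantile normalization and 9 and 10 with median centring. The repressors NRG1 and NRG2, which act on glucose-repressed genes, rose by 1.93 ± 0.068 (3.82-fold, adjusted p = 9.18e-16) and 1.48 ± 0.067 (2.78-fold, adjusted p = 5.97e-14), and REG2, a regulatory subunit of protein phosphatase 1, rose by 0.83 ± 0.07. The falls were PIP2 (-0.71 ± 0.073), a regulator of peroxisomal genes, SNF1 itself (-0.39 ± 0.051) and the hexokinase HXK2 (-0.12 ± 0.038). Of 9 measured genes of the Gid ubiquitin ligase and its helpers, which mark Fbp1, Pck1, Icl1 and Mdh2 for destruction when glucose returns, 3 rose and 4 fell, and 2 and 6 with quantile normalization or median centring. VID24, which recognises these enzymes, fell by 0.52 on the log2 scale (adjusted p = 7.52e-08), the ubiquitin-conjugating enzyme UBC8 rose by 0.52 ± 0.084 (adjusted p = 1.62e-05), GID7 rose by 0.36 ± 0.067 and GID8 fell by 0.62 on the log2 scale.

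Of 14 measured sugar genes other than SUC2 that glucose represses or controls, 4 rose and 5 fell, with quantile normalization 6 and 6, and with median centring 4 and 8. The hexokinase HXK1 rose (1.63 ± 0.039) and the hexose transporter HXT2 fell (-2.62 ± 0.065), with GAL3 at 1.02 ± 0.078 and the maltose permease MAL31 at -1.22 ± 0.063. Of 7 genes of the opposed glycolytic steps, 1 rose and 3 fell: PFK26, which makes the fructose 2,6-bisphosphate that inhibits Fbp1, rose by 0.99 ± 0.067 (adjusted p = 4.11e-11), and the minor pyruvate kinase PYK2 fell by 0.94 on the log2 scale (adjusted p = 1.15e-12), with the phosphofructokinase subunits PFK2 at -0.17 and PFK1 at -0.13. The rises and falls named in these lists kept their direction and call under the 3 other scalings, save for ALD4, DAL7 and PFK1.

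**Figure D4:**
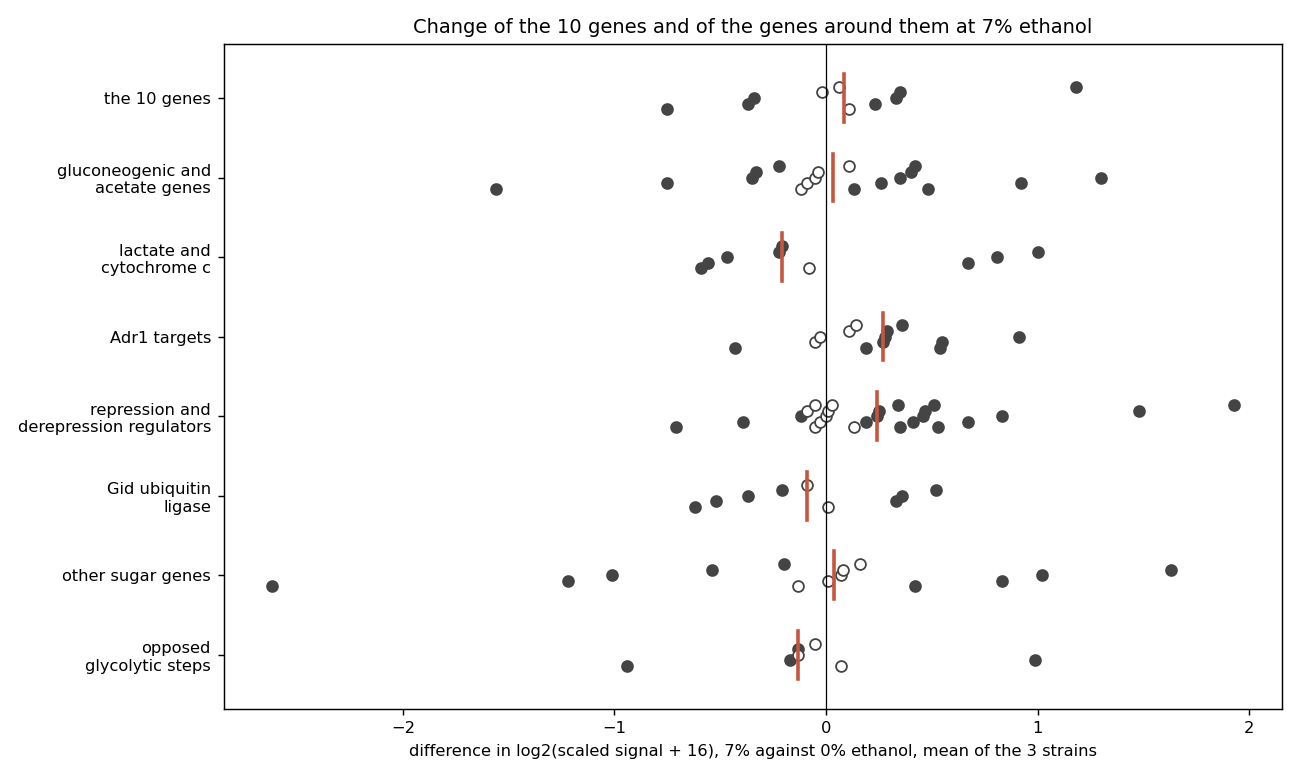
Change at 7% against 0% ethanol in the mean of the 3 strains (horizontal axis, difference in log2(scaled signal + 16)) for the 10 genes and for the genes of each related list (points, filled where the adjusted p was under 0.05), with the median of each list as a bar. Each list holds genes on both sides of 0, and the medians lie between -0.21 and 0.27.

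MLS1, MDH2, SUC2, CYB2 and ADR1 had group means that spanned at least 1 on the log2 scale, and for these the most similar patterns over the 9 group means were sought among 1701 other genes with such a span. These correlations are descriptions over 9 points that share their arrays and their scaling. CYB2 was followed most closely by GPA2, a G protein alpha subunit (r = 0.989), which read 940 and 861 in the diploid at 3% and 410 to 489 on the 6 arrays of the haploid labelled alpha. ARR3 (0.917) and PRM8 (0.9) came next. For ADR1 they were REX2 (0.986), RPH1 (0.958) and ATG40 (0.957), and for MLS1 they were ISA1 (0.982), PCL8 (0.98) and SHH4 (0.976). For SUC2 they were DDR2 (0.941), CWP1 (0.94) and SRL3 (0.925). For MDH2 they were YBR085C-A and the stress regulator MSN4 (0.929 each) and USV1 (0.918).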

How the data were processed

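Total RNA was labelled with biotin and hybridised to 1 Affymetrix array per sample, per the labels' protocols. The deposited values are a linear intensity per probe set, made by the authors with GCOS, per the submitters' processing notes. For the version, settings and scaling target nothing is given in the sources used here. Signals of S. cerevisiae probe sets had a trimmed mean (2% off each end) of 368.5 to 521.5, so each array was multiplied by 0.84 to 1.19 to equalise it, and 16 was added before log2. A gene entered when its brightest probe set exceeded the background limit (95th percentile of 1747 probe sets of another yeast) on at least 2 arrays: 5363 of 5449 genes did. A model with the 9 group means was fitted over the 18 arrays in limma 3.58.1 (R 4.3.3; lmFit, eBayes with a trend), leaving 9 residual degrees of freedom, with two-sided Benjamini-Hochberg adjusted p under 0.05 over the 5363 genes as the threshold. The fit was tested on simulated data. The number of arrays limits the precision.

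The members and lists were chosen with earlier results of these data known. All 10 members are named. From each related list, up to 4 genes with the smallest adjusted p at 7% against 0% and exceptions in direction are named, and for members with a span of at least 1 the 3 genes with the highest r. GID10, GAL4 and MAL12 were not analysed here and MAL11 was too dim. No sequences are shown and no promoter motifs were searched. Replicate numbers are shared between groups, so a replicate block was an alternative. Other alternatives were pseudocounts of 1 and 64, quantile normalization, median centring, no scaling, no filter, a filter at 9 arrays, eBayes without a trend and each array left out in turn.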

Additional observations from a re-analysis of the deposited data

Results flagged for a closer look

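The changes with ethanol differed between strains, by an interaction term in limma, in 10 cases. All of these were of ICL1, MLS1, MDH2, SUC2, CYB2 or ADR1. For 7% against 0% the haploid labelled a minus the haploid labelled alpha gave 0.80 ± 0.22 for ICL1 (adjusted p = 0.00814), 0.57 ± 0.167 for MLS1 (adjusted p = 0.012), 0.80 ± 0.202 for MDH2 (adjusted p = 0.00471), 0.74 ± 0.144 for SUC2 (adjusted p = 0.000714), 0.55 ± 0.188 for CYB2 (adjusted p = 0.0277) and -1.20 ± 0.282 for ADR1 (adjusted p = 0.00283). Among all genes 30.5% had a larger and 7.4% a smaller value in this contrast. Of 27 alternatives, 7 ended the call of CYB2, 4 that of MLS1, 2 that of ICL1 and 1 that of MDH2. SUC2 and ADR1 kept theirs. In the 1791 dim genes the median of this difference was 0.40, and the part of that shift in the 6 differences was not tested. The diploid minus the mean of the haploids gave 0.60 ± 0.125 for SUC2 at 7% (adjusted p = 0.00407), where 4.77% of all genes were larger and 4.44% smaller. The SUC2 change itself was 0.03 in the diploid, -0.21 in the haploid labelled a and -0.94 in the haploid labelled alpha. This difference thus comes mostly from the haploid labelled alpha. At 3% against 0% the diploid minus the mean of the haploids gave 0.57 ± 0.175 for MDH2 (adjusted p = 0.0445), 0.63 ± 0.125 for SUC2 (adjusted p = 0.00225) and 1.70 ± 0.163 for CYB2 (adjusted p = 1.12e-06). Among all genes 4.01% were larger and 4.96% smaller there. Groups of 2 arrays are too small for a search for single outlying arrays.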

How the results depend on the processing

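Counts below are of the 10 genes. Called at 7% against 3% in the mean of the strains were 8, against 4 with quantile normalization, 3 with median centring, 4 without scaling, 3 without the haploid labelled a in the mean, and 5 to 8 with 1 array left out (5 without the second 3% or first 7% array of the haploid labelled alpha, the second 7% array of the haploid labelled a, or the first 3% or second 7% array of the diploid). At 7% against 0% they were 7 in the haploid labelled a, against 3 with quantile normalization, 3 with median centring and 3 to 8 with 1 array left out (3 without the second 0% or second 7% array, 4 without the first 7% array). In the diploid they were 4, and 2 to 5 with 1 array left out (2 without the first array at 7%). Changes that differed between the haploids were 6, against 2 with quantile normalization, 3 with median centring and 5 to 8 with 1 array left out. The 1 change that differed between the diploid and the haploids, SUC2, was not called without scaling (0 genes). With quantile normalization 6 changes turned: CYB2 at 7% against 0% to -0.04 in the mean of the strains, and in the haploid labelled a FBP1 to -0.02, MDH2 to -0.46, JEN1 to -0.04, CYB2 to -0.09 and CAT8 to -0.42, with MDH2 and CAT8 called as falls. These settings remove shifts shared by many genes, and the cause of each turn was not tested. Over 6480 refitted changes of single genes 6130 kept their call or lack of one, 234 lost it, 110 gained it and 6 turned; where neither fit called a change its sign was not read. Deviations of same-numbered arrays correlated between -0.254 and 0.184 over 36 pairs of groups, 11 of them over 0.1, so the numbers were not taken as pairs. With the replicate block, 7 genes were again called at 7% against 0% in the mean of the strains. Over all contrasts the block added 3 calls (ADR1 at 7% for the diploid minus the haploids, -0.45, and for the haploid labelled a minus the haploid labelled alpha, -0.46, and FBP1 for the difference between the haploids in the change at 7%, 0.48) and ended 2 (MDH2 for the difference between the diploid and the haploids in the change at 3%, 0.57, and SUC2 at 7% against 3% in the diploid, 0.26). Among all genes, changes that differed between the diploid and the haploids numbered 494, against 140 without scaling and 240 to 299 without the first diploid array at 0% (245) or either at 7%. Those that differed between the haploids numbered 2034, against 1101 with quantile normalization. At 7% against 3% in the mean of the strains 3020 of all genes were called. The number was 2984 with quantile normalization, 3009 with median centring and 2306 without scaling. For the mean without the haploid labelled a it was not counted. Signal over background limits FBP1 and CAT8, which were not above the limit on every array.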
